A study of Homo sapiens with 79 samples.

Results

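The gliosis and injury response genes described here were 9 of the 24414 gene rows of the count table, and all 9 were found in it under their own symbols. They were chosen by their readout in these cells, as glial intermediate filaments and reactive genes whose levels differed between days, chips or groups of cells, so that their levels by day, chip and class are given as descriptions with no test. The intermediate filament genes were GFAP, VIM and NES. The others were CD44, the receptor of hyaluronan, LGALS3, which encodes galectin 3, TNFRSF12A, the receptor of the cytokine TWEAK, IGFBP6, a binding protein of insulin-like growth factors, GBP2, a guanylate-binding protein, and FLT1, a receptor of vascular endothelial growth factor.

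The cells came from retinal organoids, layered aggregates that resemble the developing retina, grown from the H9 human embryonic stem cell line with a CRX-GFP reporter. CRX is a transcription factor of photoreceptors. Organoids were collected at day 60, day 90 and day 200 of differentiation, with 1 chip of the Fluidigm C1 system at day 60, 1 at day 90 and 2 at day 200, called chip a and chip b. Day 60 gave 578 cells in 19 chip columns, day 90 gave 661 cells in 20 columns, chip a 356 cells and chip b 381 cells in 20 columns each, in all 1976 cells and 79 columns. All cells shared the same line, the same reporter and a medium with foetal calf serum, T3, taurine and retinoic acid. The line is 1 genetic background, and the number of organoids on each chip is not given in the sources used here. No group was injured or treated, so the names of the genes say nothing of an injury in these cultures.

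Müller glia are the radial glia of the retina and among the last cell types that its progenitors form. After damage to the retina they enlarge their intermediate filament network, with more GFAP and vimentin, and turn on membrane and secreted proteins of the injury response, a state called gliosis. Vimentin and nestin are also filaments of the progenitors themselves, while GFAP is the filament of astrocytes and is low in undisturbed Müller glia.

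Of the 9 genes, 6 had a promoter in the RefSeq table of GRCh38.p14 (VIM, NES, CD44, LGALS3, IGFBP6 and FLT1). The 4 printed here are the parts of the 250 bases before the RefSeq start that lie outside annotated exons. VIM and NES are printed as the filament genes that were read at every day, and LGALS3 and FLT1 as genes that were higher at day 200. The windows are chr10:17227991-17228240 on the plus strand for VIM, chr1:156677408-156677657 on the minus strand for NES, chr14:55129002-55129251 on the plus strand for LGALS3 and chr13:28495146-28495378 on the minus strand for FLT1. Capitals mark the motifs searched on both strands.
VIM: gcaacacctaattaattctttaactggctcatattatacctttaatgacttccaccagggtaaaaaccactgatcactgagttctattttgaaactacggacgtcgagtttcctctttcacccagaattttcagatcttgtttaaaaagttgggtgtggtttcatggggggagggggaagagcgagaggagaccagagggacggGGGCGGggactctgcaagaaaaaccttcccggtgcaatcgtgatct
NES: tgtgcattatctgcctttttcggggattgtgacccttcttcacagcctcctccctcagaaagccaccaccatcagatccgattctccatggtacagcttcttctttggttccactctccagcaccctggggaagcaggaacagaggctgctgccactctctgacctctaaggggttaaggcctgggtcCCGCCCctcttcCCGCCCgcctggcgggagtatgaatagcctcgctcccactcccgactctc
LGALS3: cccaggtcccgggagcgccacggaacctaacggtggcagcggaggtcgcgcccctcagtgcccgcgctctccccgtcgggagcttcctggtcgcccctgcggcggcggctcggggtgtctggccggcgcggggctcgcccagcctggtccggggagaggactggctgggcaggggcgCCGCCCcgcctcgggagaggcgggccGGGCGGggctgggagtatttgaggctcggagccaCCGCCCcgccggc
FLT1: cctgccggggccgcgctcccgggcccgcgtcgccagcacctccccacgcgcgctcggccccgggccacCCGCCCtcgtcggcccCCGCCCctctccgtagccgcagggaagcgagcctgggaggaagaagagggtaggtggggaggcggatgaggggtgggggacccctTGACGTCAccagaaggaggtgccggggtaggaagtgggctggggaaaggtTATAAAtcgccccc
The GC box (GGGCGG) was found in 6 of 6 promoters, and 42.6% of the 35116 promoters of the table held it. The FLT1 promoter also held a TATA box (TATAAA, 10.7% of all promoters) 31 bases before its start and a cyclic AMP response element (TGACGTCA, 1.65%) 81 bases before it. CD44 held the hypoxia response core ACGTG (18.5%) and IGFBP6 the TEAD letters GGAATG (11.9%). These 2 windows lie in annotated exons of their genes, with 250 of 250 bases for CD44 and 231 of 250 for IGFBP6. They were counted here but not printed. The STAT letters TTCNNNGAA, the AP-1 letters TGANTCA, the interferon letters GAAANNGAA and CCAAT were in 0 of the 6 windows, beside 6.57%, 6.57%, 6.88% and 32% of all promoters. These matches describe letters in short windows and no binding was measured.

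On GRCh38, GFAP lies on chromosome 17 from 44903159 to 44916937 on the minus strand, with 9 exons in its canonical transcript. VIM lies on chromosome 10 from 17228241 to 17237593 (plus strand, 10 exons), NES on chromosome 1 from 156668763 to 156677407 (minus, 4 exons) and CD44 on chromosome 11 from 35138882 to 35232402 (plus, 18 exons). LGALS3 lies on chromosome 14 from 55124110 to 55145423 (plus, 6 exons), so the RefSeq start used above falls inside its GENCODE span. TNFRSF12A lies on chromosome 16 from 3018445 to 3022383 (plus, 4 exons), IGFBP6 on chromosome 12 from 53097436 to 53102345 (plus, 4 exons), GBP2 on chromosome 1 from 89106132 to 89150456 (minus, 11 exons) and FLT1 on chromosome 13 from 28300346 to 28495145 (minus, 30 exons). GBP7 overlaps GBP2 on the same strand, and it had 0, 117, 402 and 163 reads at day 60, at day 90 and on chips a and b, far fewer than GBP2. VIM-AS1 and CLDN6 overlap VIM and TNFRSF12A on the other strand, and both had reads at day 60 only (95 and 32).

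Levels are reads of a gene per 1e6 reads (CPM), summed over the cells of a chip. Runs of 4 values give day 60, day 90, chip a and chip b, always in this order. Column totals ran from 3414268 to 7999822 reads, and cells had a median of 160343 to 251929 reads by chip. Chip a stood apart with a median of 2363.5 genes per cell, beside 3492 to 3813.5 on the other chips, and its cells were the most deeply read. The median share of mitochondrial reads ran from 4.14% to 6.98%. With 1 chip at day 60 and at day 90 there was no test between days, and the 2 chips of day 200 are the only repeat. Intervals are exact 95% intervals and cover counting error only. A row was called higher or lower where log2(CPM + 1) differed by at least 1, for day 200 on both chips, among the 12365 rows with a mean of at least 5 CPM over the 4 chips. All 9 genes passed that minimum.

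At day 200, 5 of the 9 genes were higher than at day 60 on both chips (CD44, LGALS3, IGFBP6, GBP2 and FLT1) and 0 were lower, beside 7.7% of all rows tested that were higher and 3.23% that were lower. The median change of the 9 genes was 2.64 in log2(CPM + 1), and that of all rows was 0.073. At day 90, 5 genes were higher than at day 60 (GFAP, CD44, LGALS3, GBP2 and FLT1) and 0 were lower, beside 10.5% and 6.88% of all rows. The median change was then 2.44, beside 0.017 for all rows. Chip b was higher than chip a for 3 genes (GFAP, LGALS3 and IGFBP6) and lower for 0, beside 7.62% and 5.25% of all rows. Since the genes were chosen on these values, nothing is read from the counts. In sums over cells, more cells of a type and more RNA per cell cannot be told apart. Without chip a, 7 genes were higher at day 200, GFAP and TNFRSF12A being added.

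**Figure D1:**
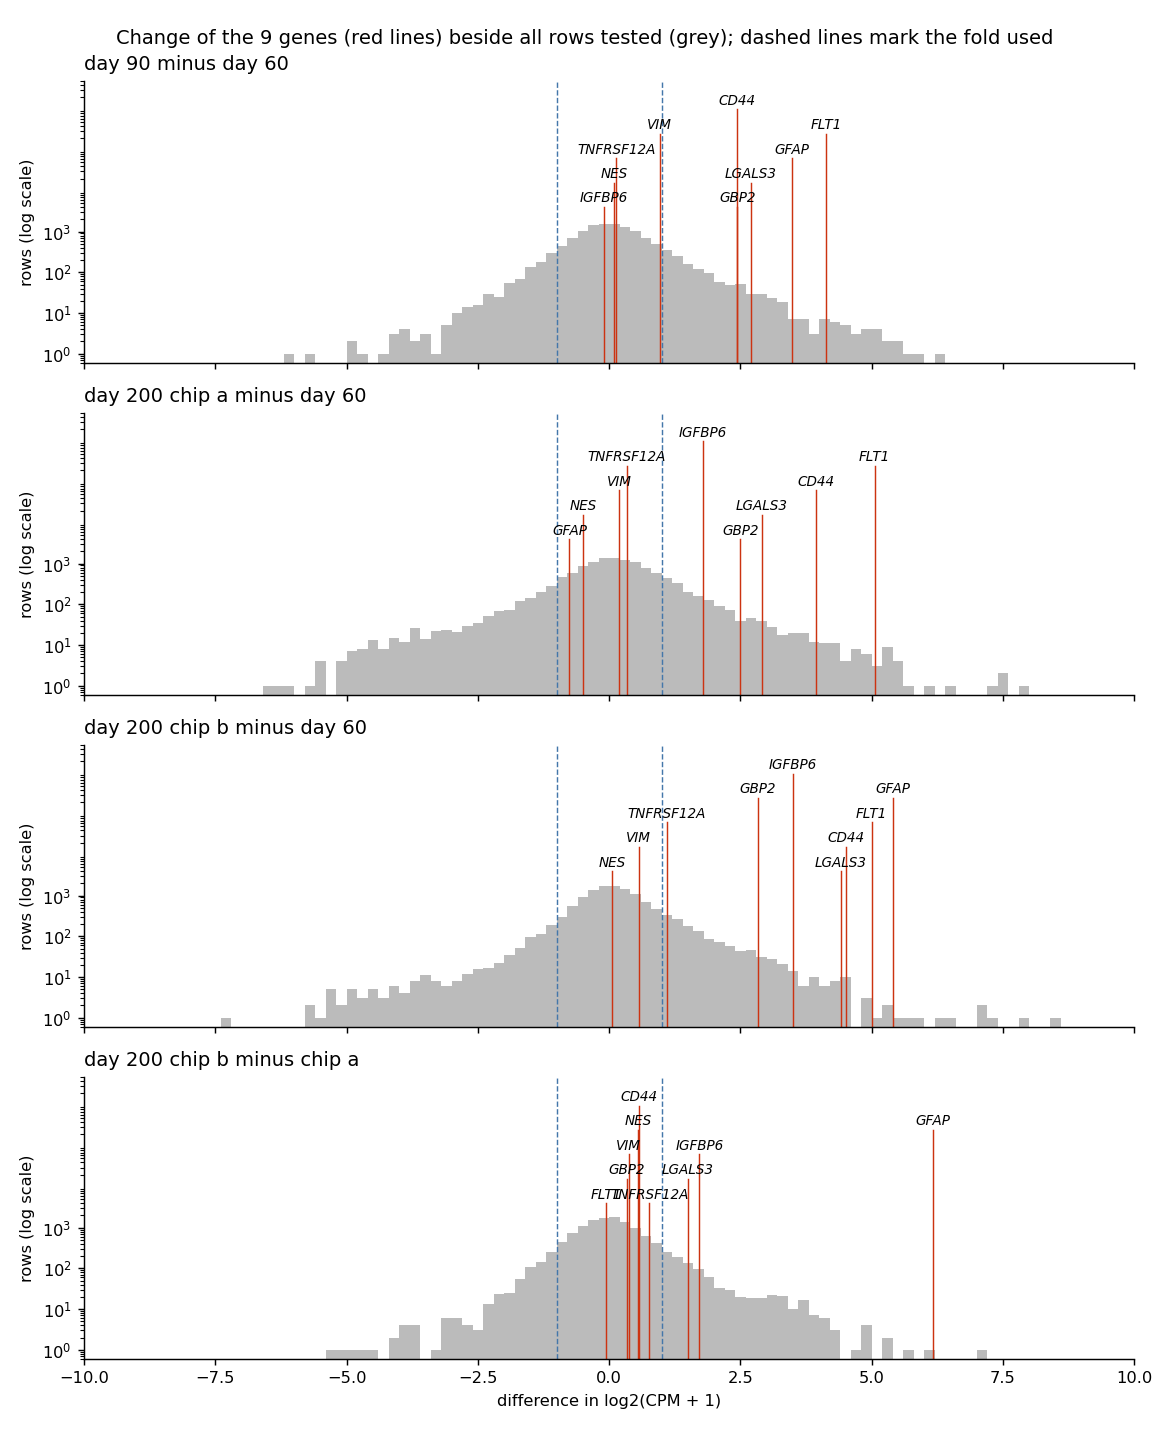
Differences in log2(CPM + 1) of the 9 genes (red lines with names) beside the histogram of the 12365 rows tested (grey, log scale), for day 90, chip a and chip b of day 200 against day 60, and chip b against chip a. Dashed lines mark a difference of 1. CD44, LGALS3, GBP2 and FLT1 lie right of the dashed line in each of the first 3 panels, while GFAP lies at -0.76 on chip a and at 5.41 on chip b.

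VIM, the main intermediate filament of progenitors and Müller glia, had the highest level per kilobase of the 9 genes on every chip. It stood at 994, 1933, 1131 and 1464 CPM. Its columns spanned 587 to 1408 CPM (median 1024), 1318 to 2991 (median 1941), 508 to 1683 (median 1136), and 899 to 2486 (median 1299). The day 90 columns lay highest and overlapped those of every other chip. Relative to day 60 the change was 0.96 at day 90, 0.19 and 0.56 on chips a and b, each short of the fold used. After thinning each cell to 50000 reads, 90.7% (88.0 to 92.9) of the cells of day 60 had a VIM read, 89.0% at day 90, 78.7% and 85.8% on chips a and b. VIM is thus read in most cells of these organoids, and its level in a cell says more than its presence.

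VIM also differed by class of cells. Classes were found by clustering and named from marker lists of the study, and VIM is in the Müller glia list, so its place there is not independent. In the Müller glia-like cells of day 200, VIM stood at 1781 and 2158 CPM on chips a and b, and at 1866 and 1831 CPM in an unnamed cluster led by GDF15, SCD and TRIB3. In cone-like cells it stood at 189.5 and 68.3 CPM and in rod-like cells at 329.5 and 331 CPM. Photoreceptor-like cells therefore held less VIM in CPM than glia on both chips of day 200. Cells with a VIM read made up 99.6% of the Müller glia-like cells of day 200 and 48.4% of the cone-like cells, at median depths of 246756 and 250968 reads before thinning.

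NES encodes nestin, a filament of neural progenitors. It stood at 209, 224, 148 and 217 CPM. Columns spanned 101 to 458 CPM (median 174), 80.6 to 392 (median 220), 0.703 to 357 (median 126), and 31.7 to 400 (median 216). The columns of all 4 chips overlapped, and chip a alone had columns near 0. The share of cells with a NES read at 50000 reads was 48.4%, 47.3%, 20.5% (16.4 to 25.1) and 42.3% (37.2 to 47.4). The low share thus belonged to 1 of the 2 day 200 chips. NES did not pass the fold in any comparison (-0.50 and 0.05 on chips a and b against day 60). At day 200 the Müller glia-like cells held 69.5% of all NES reads while being 32.2% of the cells.

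GFAP behaved unlike the other filaments and was nearly absent from most cells. It stood at 0.867 CPM (0.698 to 1.06), 19.7 CPM (18.9 to 20.6), 0.103 CPM (0.0496 to 0.190) and 78.3 CPM (76.5 to 80.1). Columns spanned 0 to 14.2 CPM, 0 to 335, 0 to 0.675, and 0 to 749. The median column was at 0 on every chip but chip b, where it was at 3.85 CPM. GFAP had no read in 14 of 19 columns at day 60, in 17 of 20 at day 90, in 16 of 20 on chip a and in 6 of 20 on chip b. The 2 chips of day 200 thus gave opposite signs against day 60, -0.76 and 5.41 on chips a and b.

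**Figure D2:**
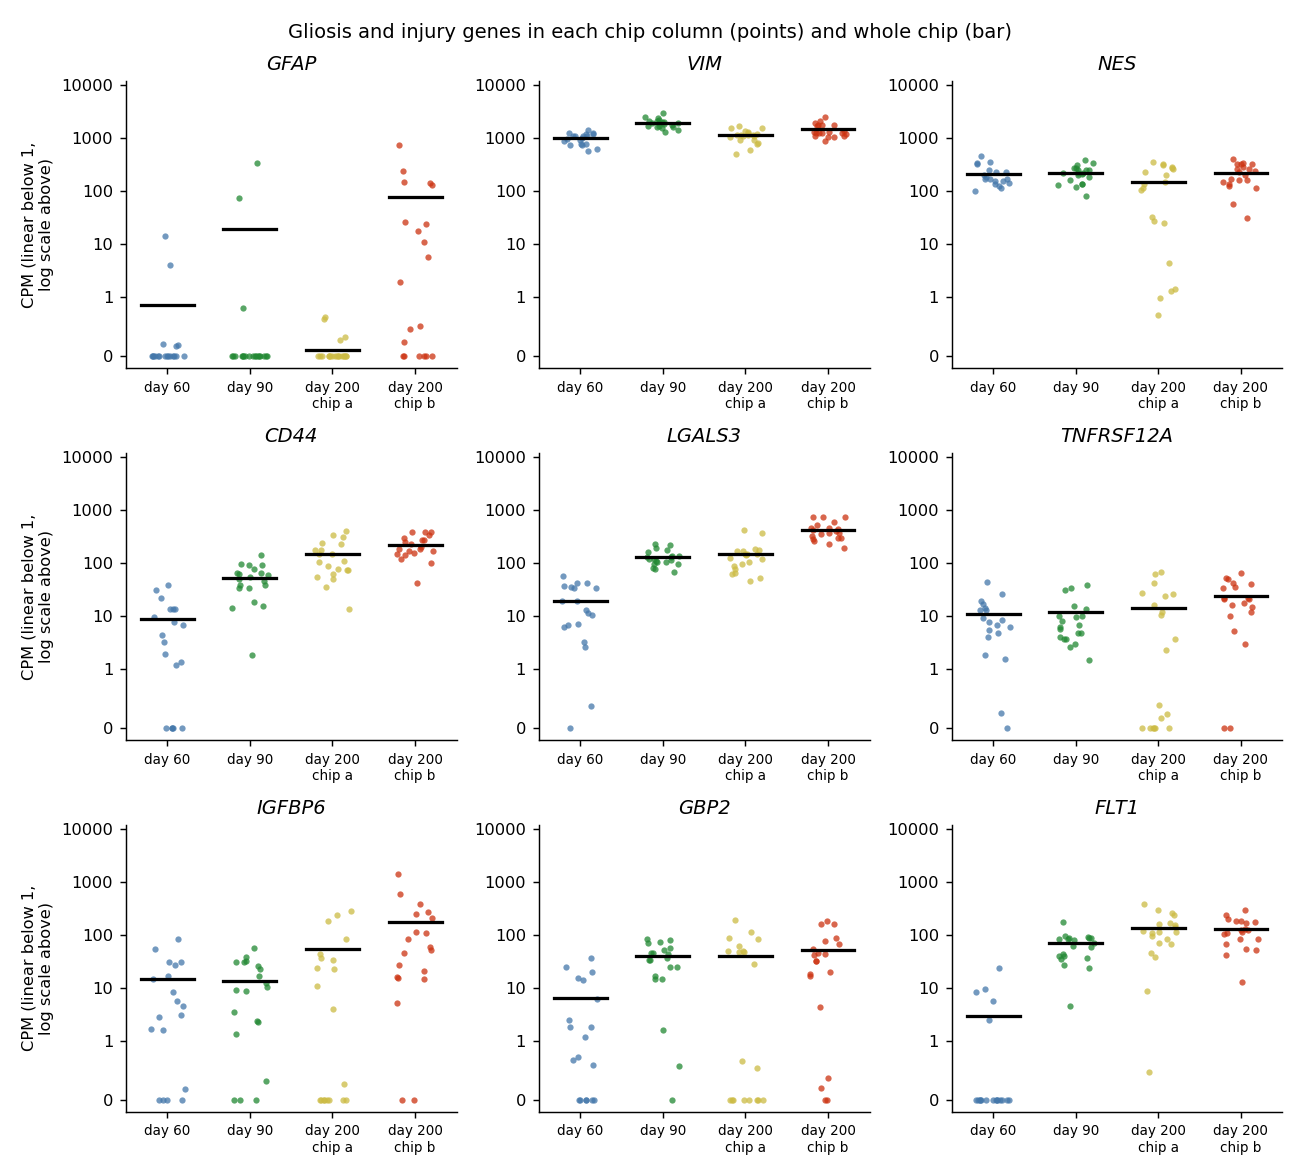
CPM of each of the 9 genes in each chip column (points) and in the whole chip (bar), on an axis that is linear below 1 and logarithmic above, for day 60, day 90 and chips a and b of day 200. GFAP columns sit at 0 in most columns of day 60, day 90 and chip a, while VIM columns sit between 508 and 2991 CPM on all 4 chips.

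A few cells carried nearly all GFAP reads. GFAP reads were found in 5 of 578 cells at day 60, 14 of 661 at day 90, 5 of 356 on chip a and 44 of 381 on chip b. The 5 cells with most reads held 98.7% of the GFAP reads of day 90 and 89.6% of those of chip b, and 1 cell of chip b alone held 48.5%, at 18380 CPM. Without the 5 cells with most reads on each chip, GFAP stood at 0, 0.252, 0 and 8.25 CPM. The difference at day 90 thus rests on those cells, and the one between chips on more than 5. In cells with at least 150000 reads and at most 10% mitochondrial reads, GFAP stood at 1.34, 26.8, 0.111 and 36.6 CPM. The chip b cell with 48.5% of the reads did not pass that filter.

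Cells with at least 100 GFAP CPM, a limit set with the values in view, numbered 1, 4, 0 and 12. Those of chip b lay in 9 columns. Of these 17 cells, 9 were in the class matching the study's list for its cluster 8 (POSTN, SPARCL1, GPC3 and MEIS2 among its genes) and 4 were Müller glia-like. GFAP stood at 594 CPM in the 18 cluster 8-like cells of day 90 and at 617 CPM in the 47 of chip b, but at 10.3 CPM in the 28 of day 60 and at 0 in the 6 of chip a. These class values rest on a few cells, since the 57 cluster 8-like cells of day 90 and chip b under 100 GFAP CPM stood at 0.574 CPM together. In the Müller glia-like cells it stood at 1.24, 0.765, 0.197 and 12.2 CPM. The cluster 8-like cells of day 200 held 89.9% of its reads while being 7.2% of the cells. Chip a had 6 such cells and chip b 47.

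**Figure D3:**
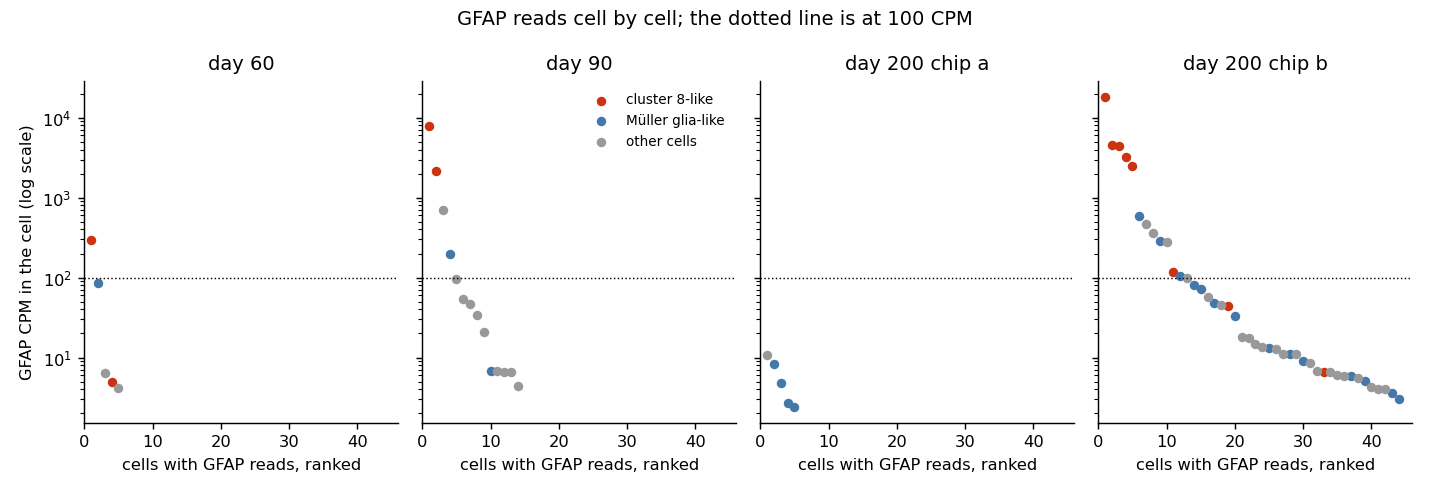
GFAP CPM (log scale) of every cell with a GFAP read, ranked within each chip and coloured by class, with a dotted line at 100 CPM. Chip a has 5 such cells, the highest at 10.8 CPM, while the 5 highest cells of chip b are cluster 8-like, the highest at 18380 CPM.

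GFAP reads were also gathered in 1 cluster when GFAP itself took no part in the clustering. With all 9 genes kept out of the variable genes, a cluster of 50 cells matching the cluster 8 list held 85.3% of all GFAP reads, and GFAP led its genes by fold. Its cells came from all 4 chips (22, 7, 1 and 20). The 7987 GFAP reads of this cluster included 3387 of 1 chip b cell and 1709 of 1 day 90 cell, so the share and the fold rest on a few cells. The 17 cells with at least 100 GFAP CPM also had reads of SPARCL1 (12 of 17 at 50000 reads), GPC3 (10 of 17), RFX4 (8 of 17), the glutamate transporter gene SLC1A2 (7 of 17) and the astrocyte marker S100B (5 of 17). In the 279 Müller glia-like cells of day 90 and chip b these were read in 9.32%, 27.2%, 1.08%, 11.8% and 3.58% of the cells. In the 57 other cluster 8-like cells of the same chips they were read in 68.4%, 77.2%, 15.8%, 36.8% and 29.8%, so that SPARCL1, GPC3, SLC1A2 and S100B were read in the class with or without high GFAP. AQP4, the water channel of glial endfeet, was read in 2 of the 17 cells and ALDH1L1 in 2, and each was also read in 2 of the 57. The other astrocyte markers in the table were rare in the 17 cells, with PAX2 and FGFR3 in 1 each and GJB6 in 0. In the 57 they were read in 11, 5 and 0, and in 10.8%, 2.51% and 1.08% of the Müller glia-like cells. The eye-field regulator PAX6 was read in 16 of 17, beside 86.4% of the Müller glia-like cells and 73.7% of the other cluster 8-like cells. Of the other 8 genes, VIM was read in 17 of the 17 cells, CD44 in 11, NES in 7, LGALS3 in 6, IGFBP6 and FLT1 in 2 each, GBP2 in 1 and TNFRSF12A in 0.

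Low GFAP counts lay beside high ones on the chip. At day 90, 8 of the 9 other cells with a GFAP read (88.9%) sat in the same chip column as one of the 5 cells with most reads, beside 8.66% of the cells without a read. These 9 cells held 29 reads, with a median of 1. On chip b the shares were 35.9% of 39 cells and 22% of 337 cells, and the 39 cells had a median of 3 reads. IGFBP6 showed the same on each chip, with 48.4%, 32.7%, 51.6% and 42.4% of the cells with reads sharing a column with a top cell, beside 26.4%, 21.8%, 17.2% and 18.3% of those without. FLT1 showed it at day 60, in 4 of the 5 other cells with reads (80%), beside 21.8% of the 568 cells without. For VIM the shares were 13.7%, 26%, 25.2% and 24%, beside 16%, 27.6%, 27.3% and 19.2%. Cells of a column share a library, and the part of this in the shares of cells with a read was not tested. For GFAP and IGFBP6, levels and high cells are therefore given before shares.

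CD44 binds hyaluronan and links the surface of glia to the matrix around them. It stood at 8.79 CPM (8.23 to 9.37), 52 (50.7 to 53.3), 148 (146 to 151) and 222 (219 to 225). Columns spanned 0 to 38.5 CPM (median 4.35), 1.86 to 145 (median 52.8), 13.7 to 410 (median 108), and 41.5 to 383 (median 195). Every column of chip b lay above every column of day 60, while those of day 90 and chip a overlapped with day 60. The change from day 60 was 2.44 at day 90, 3.93 and 4.51 on chips a and b. At 50000 reads, CD44 was read in 4.50%, 21.5%, 25.3% and 42% of the cells, so that both its level and its share of cells were higher at the later days.

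At day 200 the reads of CD44 lay mostly in 2 classes, a split that depended on the clustering. The Müller glia-like cells held 56.3% of them and the unnamed cluster 26.4%, with 32.2% and 15.5% of the cells. Without integration the Müller glia-like share was 71.9% (47.5% of the cells), and with each cell given to its nearest marker list it was 92.6% (56.4% of the cells), while that of LGALS3 went from 54.8% to 78.8% and 93.4%. In the Müller glia-like cells CD44 stood at 1.40, 128, 270.3 and 341 CPM, and in the unnamed cluster at 7.72, 22.7, 262 and 406 CPM. RGC-like cells, which should lack it, stood at 0.454 and 16.2 CPM on chips a and b, with only 8 and 20 cells. CD44 reads were found in 53.6% of the Müller glia-like and 21.4% of the RGC-like cells of day 200, at median depths of 246756 and 213574 reads. The level separates these classes more clearly than the share, though with few RGC-like cells.

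LGALS3 encodes galectin 3, a lectin of phagocytic and injured cells. It stood at 19.2 CPM (18.4 to 20.1), 131 (128 to 133), 151 (148 to 153) and 429 (424 to 433). Columns spanned 0 to 57.6 CPM (median 12.9), 69.2 to 230 (median 119), 46.2 to 429 (median 133), and 191 to 756 (median 383). No column of day 90 or chip b overlapped with day 60, whereas columns of chips a and b overlapped each other. The change from day 60 was 2.70 at day 90, 2.91 and 4.41 on chips a and b, and chip b exceeded chip a by 1.5. The highest level of any named or unnamed class was in the unnamed cluster of chip b (1111 CPM), followed by the Müller glia-like cells of the same chip (681 CPM). In the RGC-like cells LGALS3 stood at 1.36 and 6.50 CPM on chips a and b, with only 8 and 20 cells. LGALS3 was read in 60.8% of the Müller glia-like cells of day 200 and in 10.7% of the RGC-like cells.

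TNFRSF12A encodes the receptor of TWEAK and is induced in wounded tissue. It was low on all chips, at 10.9 CPM (10.3 to 11.6), 12.1 (11.5 to 12.7), 14.0 (13.3 to 14.8) and 24.4 (23.4 to 25.5). Columns ran from 0 to 44.7, from 1.52 to 38.5, from 0 to 69.3 and from 0 to 65.2 CPM, and overlapped among all chips. Its change from day 60 was 0.14 at day 90, 0.33 and 1.09 on chips a and b, so that chip b alone passed the fold. Its reads at 50000 were in 9.86%, 10.2%, 5.90% and 14.4% of the cells.

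IGFBP6 binds insulin-like growth factor 2 and is made by fibroblasts and other matrix-producing cells. It stood at 14.9 CPM (14.2 to 15.7), 13.8 (13.1 to 14.4), 53.5 (52 to 55) and 178 (175 to 181). Columns spanned 0 to 84.5 CPM (median 4.60), 0 to 56.5 (median 9.76), 0 to 286 (median 7.44), and 0 to 1435 (median 54.6). All 4 chips had columns at 0. The 5 cells with most reads held 80.1% of the reads of chip a and 63.9% of those of chip b, and 1 cell of chip b stood at 26448 CPM. Without those 5 cells per chip the levels were 5.55, 7.69, 10.9 and 65.4 CPM, and IGFBP6 was then higher at day 200 on chip b only.

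IGFBP6 was a gene of the ECM-like cells and of a small glial cluster. In the ECM-like class, led by collagens and DCN, it stood at 368, 110, 543 and 485 CPM. In a smaller Müller glia-like cluster of 101 cells it stood at 53.9, 73.2, 193 and 785 CPM, with 41.4% of the chip b reads of that cluster in 1 cell. IGFBP6, GBP2, TNFRSF12A and LGALS3 were among the 10 leading genes of that cluster, so they helped to define it. When the 9 genes were kept out of the variable genes, that cluster was no longer found and 89 of its 101 cells joined the main Müller glia-like cluster. The share of day 200 IGFBP6 reads in Müller glia-like cells was then 29.2% in place of 65.8%.

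GBP2 is a guanylate-binding protein induced by interferon and a marker of inflammatory reactive astrocytes. It stood at 6.42 CPM (5.95 to 6.93), 39.3 (38.1 to 40.4), 40.8 (39.6 to 42.1) and 51.7 (50.2 to 53.2). Columns spanned 0 to 36.5 CPM (median 1.19), 0 to 83.2 (median 35.8), 0 to 189 (median 14.6), and 0 to 180 (median 37.1). The columns overlapped among all chips, and the change from day 60 was 2.44, 2.49 and 2.83 on the 3 later chips. On chip a, 5 cells held 64.6% of the reads. GBP2 was read in 3.63%, 11.8%, 6.46% and 12.6% of the cells at 50000 reads, so a minority of cells carried it at every day. By class it was highest in the ECM-like cells of chip a (553 CPM, 6 cells), and cone-like cells stood at 0.835 CPM there.

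FLT1 encodes VEGF receptor 1, which binds VEGF-A and placental growth factor. It stood at 3.01 CPM (2.69 to 3.36), 69.5 (68 to 71.1), 132 (130 to 135) and 127 (125 to 130). Columns spanned 0 to 24 CPM with 14 of 19 at 0, 4.60 to 175 (median 66), 0.468 to 378 (median 113), and 13.0 to 299 (median 119). The lowest columns of each later chip lay within the range of day 60, and chips a and b gave nearly the same level. The change from day 60 was 4.14 at day 90, 5.06 and 5.00 on chips a and b. At day 60, 1 cell held 54.4% of the reads. FLT1 was read in 1.21%, 22.4%, 24.4% and 31.8% of the cells at 50000 reads.

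FLT1 was read mainly in Müller glia-like cells, and 5 of 7 endothelial markers were at 0 on each day 200 chip. At day 200 the Müller glia-like cells held 69.7% of its reads, and they stood at 7.46, 217, 274 and 263 CPM. The ECM-like cells stood at 0.594 and 8.07 CPM on the day 200 chips. The endothelial marker list summed to 24.8, 6.58, 15.9 and 19.3 CPM on the 4 chips, with 7 of 8 markers in the table. PECAM1 had no read in any cell of day 90 or day 200. CLDN5, the endothelial marker read on all of these chips, was read in 5.44%, 4.60% and 8.26% of the 147, 87 and 121 cells with FLT1 reads of day 90, chip a and chip b, beside 3.74%, 3.35% and 5.38% of the cells without. At day 90, TEK was read in 4 of the 147 cells and TIE1 in 2, beside 3 and 2 of the 508 cells without. The part of endothelial cells in FLT1 was not tested. KDR, the other main VEGF receptor, was read in 39.5%, 37.9% and 48.8% of the cells with FLT1 reads, beside 17.9%, 19.0% and 21.9% of the cells without FLT1 reads. Within the larger Müller glia-like cluster alone these shares were 51% against 47.6% at day 90, 55.3% against 36.1% and 70% against 59.5% on chips a and b, a smaller gap than over all cells at day 90 and on chip b but not on chip a.

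**Figure D4:**
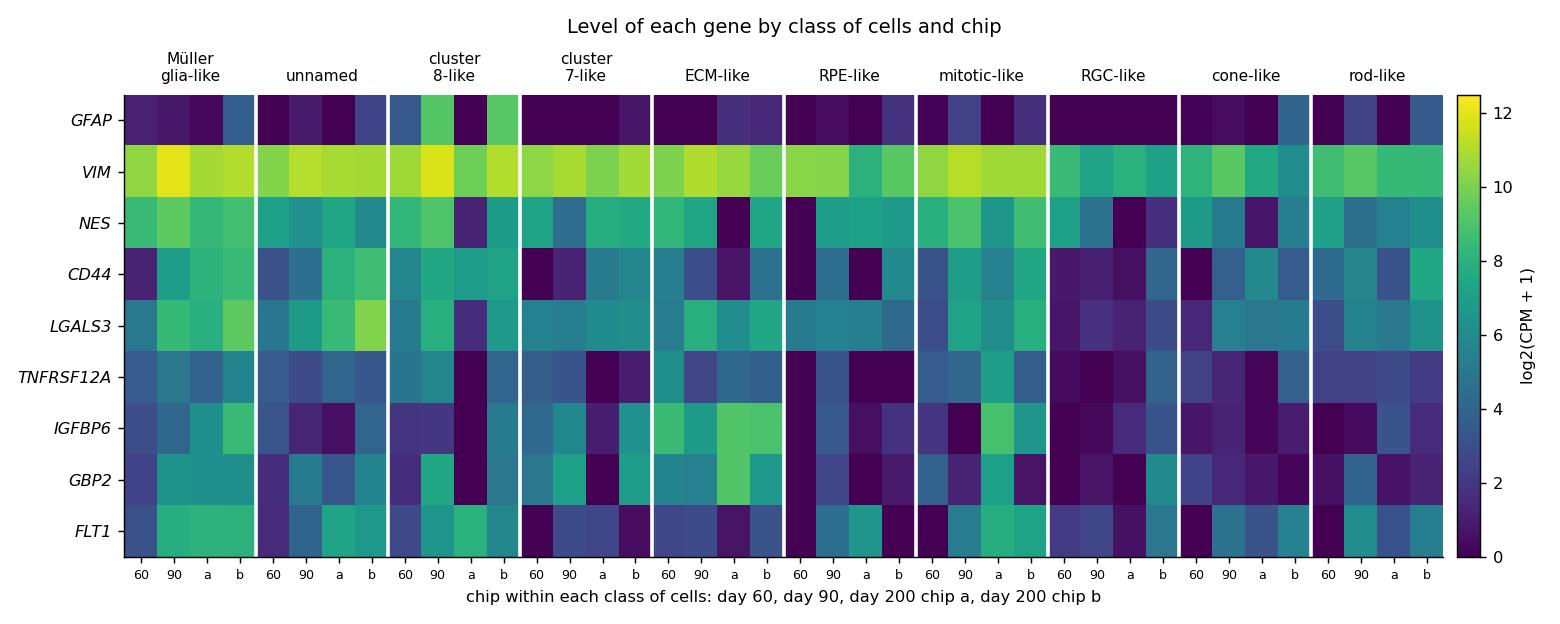
Level of each gene as log2(CPM + 1) (colour) by class of cells and, within each class, by chip in the order day 60, day 90, day 200 chip a and chip b. FLT1, CD44 and LGALS3 are brighter in the later Müller glia-like columns than at day 60, IGFBP6 is brightest in the ECM-like class, and GFAP reaches 594 CPM at day 90 and 617 CPM on chip b in the cluster 8-like class.

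The levels of genes of different length were compared per kilobase of the canonical transcript. At day 200, over both chips, VIM stood at 599 CPM per kilobase, LGALS3 at 297, IGFBP6 at 120, CD44 at 33.8, NES at 32.5, TNFRSF12A at 19.5, FLT1 at 18.2, GBP2 at 11.3 and GFAP at 6.84. NES and CD44 were next to each other in that order, and their chip values overlapped (26.6 and 38.9 for NES, 27.3 and 40.9 for CD44). TNFRSF12A and FLT1 overlapped likewise (14.4 and 25.0, 18.6 and 17.9). GFAP stood at 0.0188 on chip a and 14.2 on chip b, on either side of GBP2 (9.99 and 12.6), so its last place holds for chip a and the pooled value only. At day 60 VIM stood at 462 and GFAP at 0.158 CPM per kilobase.

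The same genes were then read in the larger Müller glia-like cluster alone (450 cells, with 142, 132, 99 and 77 by chip). Its cells were not alike across days in every clustering. Without integration of the days, 126 of its 142 day 60 cells fell in 1 cluster and 120 of 132, 97 of 99 and 77 of 77 of the later cells in another, and at a resolution of 0.8, 61 of its 99 chip a cells and 11 of its 77 chip b cells left it for a second cluster. Its leading genes were TF, GPX3 and WIF1, and none of the 9 genes was among the first 10. In this cluster 8 of the 9 genes passed the minimum. On both chips of day 200, 6 were higher than at day 60 and 0 lower, beside 9.04% and 6.38% of the 11871 rows tested. The 6 were CD44, LGALS3, TNFRSF12A, IGFBP6, GBP2 and FLT1. Both the genes and the cluster were chosen with values seen, so nothing is read from these counts. CD44 stood at 0.045, 73.8, 276 and 349 CPM, and its day 60 value is 1 read. LGALS3 stood at 15.0, 198, 230 and 492 CPM, FLT1 at 8.43, 173, 223 and 232, and GBP2 at 0.680, 46.9, 41.8 and 25.9. TNFRSF12A stood at 2.86, 13.0, 11.4 and 17.1 CPM. IGFBP6 stood at 0.544, 2.75, 55.3 and 2.85 CPM there, with 56.1% of its chip a reads in 1 cell. It passed the minimum through chip a alone. VIM stood at 1275, 3794, 1773 and 1942 CPM and NES at 301, 574, 257 and 377 CPM, so both filaments were highest at day 90. GFAP did not pass the minimum, at 0, 0.967, 0.230 and 6.71 CPM.

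Cells with 5 or more of the 9 genes made up a larger share at the later days. Since the genes were chosen on their levels by day, nothing is read from this. At 50000 reads, 5 or more of the genes had a read in 9 of 578 cells at day 60 (1.56%), 64 of 655 at day 90 (9.77%), 15 of 356 on chip a (4.21%) and 82 of 381 on chip b (21.5%). The median cell held 2, 2, 2 and 3 of them. Cells with 0 of the genes made up 6.57%, 7.33%, 13.8% and 6.56%, the largest share being on chip a. No cell held all 9. The 2 day 200 chips lay on either side of day 90.

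**Figure D5:**
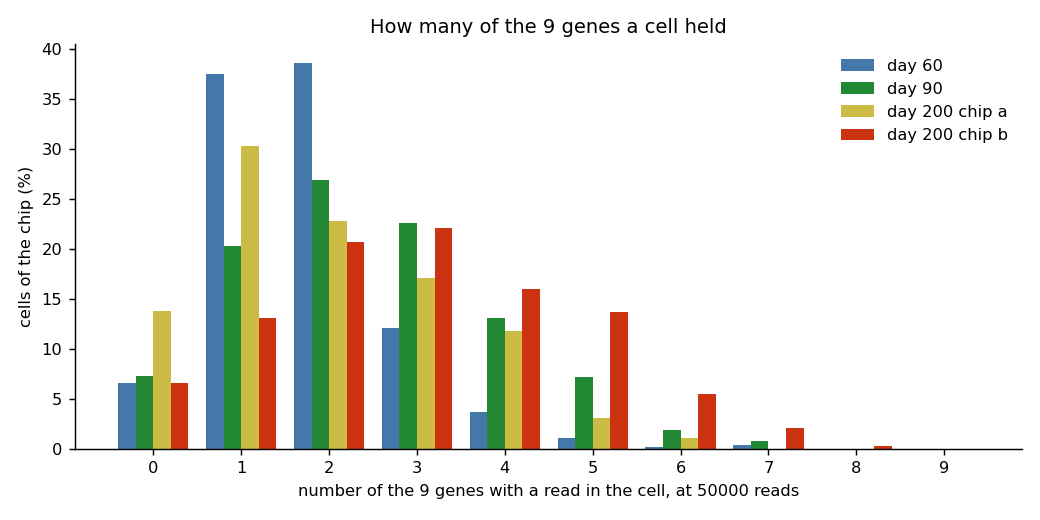
Share of the cells of each chip (bars, %) by the number of the 9 genes with a read after thinning to 50000 reads. Day 60 cells mostly hold 1 or 2 of the genes, and chip b of day 200 has 21.5% of its cells at 5 or more.

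LGALS3 was read in a larger share of the cells with CD44 reads than of the cells without. On chip b, 66.2% (58.4 to 73.5) of the 160 cells with CD44 reads had LGALS3 reads, beside 36.2% of the 221 cells without. On chip a the shares were 44.4% and 22.9%, at day 90 48.2% and 30.2%, and at day 60 30.8% and 9.60%. Within the larger Müller glia-like cluster they were 50% and 44% at day 90, 47.6% and 31.6% and 75.6% and 65.6% on chips a and b, a smaller gap than over all cells. Cells with GFAP reads were set beside the rest in the same way, and the chips differed. At day 90, 9 of 12 such cells (75%, 42.8 to 94.5) had CD44 reads, beside 20.5% of the other 643 cells, and 2 of 12 (16.7%) had GBP2 reads, beside 11.7%. Day 60 and chip a had 3 and 2 cells with GFAP reads at that depth. Of the 33 cells of chip b with GFAP reads at that depth, 15 (45.5%) had CD44 reads, beside 41.7% of the other 348 cells, and 0 had GBP2 reads, which allows a share of up to 10.6%, beside 13.8%. Before thinning, 14 cells of day 90 had a GFAP read, and 2 chip columns held 5 and 8 of them. In those columns 15 of 34 and 20 of 35 cells had CD44 reads, beside 175 of 661 on the whole chip. The part of the shared columns in the day 90 shares was not tested, and the intervals treat cells as independent.

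Across the cells of day 200, the genes most like each of the 9 were taken as those with the highest mean over both chips of Pearson's r of log2(CPM + 1), among 10579 rows read in at least 5% of the cells of each chip. These are descriptions over 356 and 381 cells that share a library and differ in depth. VIM was most like CLU (r = 0.65), ZFP36L1 (0.59) and DKK3 (0.55). CD44 was most like SPP1 (0.38), CLU (0.34) and VIM (0.34), and LGALS3 most like SPP1 (0.40), VIM (0.39) and ZFP36L1 (0.37). FLT1 was most like ESPN (0.34), WIF1 (0.32) and DKK3 (0.32), and NES most like IFITM2 (0.33), DKK3 (0.32) and CLU (0.32). CLU, DKK3, SPP1 and WIF1 are in the list that names Müller glia-like cells. IGFBP6 was most like TGM2 (0.38), TGFBI (0.36) and DCN (0.35), of which TGFBI and DCN are in the ECM list. TNFRSF12A (TAGLN2, NGFR and FLNA, at most 0.20) and GBP2 (PLAT, CFI and SPARC, at most 0.22) had only weak likeness. GFAP was read in under 5% of the cells of chip a and was left out.

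Other genes of these pathways were taken from lists set out with earlier results known, and the share of all rows called at day 200 (7.7% higher, 3.23% lower) stands beside each count. Of 10 other intermediate filament genes tested, 0 were higher and 5 lower, with KRT19 at 17.5 CPM at day 60 and 0 and 8.14 CPM on chips a and b, and LMNB1, a filament of the nucleus, at 48.0, 5.11 and 11.6 CPM. Of 8 CD44 and hyaluronan genes, SPP1, a ligand of CD44, stood at 224, 1176 and 1585 CPM and the hyaluronan synthase gene HAS2 at 6.18, 17.2 and 17.8, both higher, while the hyaluronan receptor of dividing cells HMMR was lower (12.4 CPM at day 60 and no read on either day 200 chip). Of 4 galectins and partners and 6 TWEAK receptor partners, 0 were called in either direction. TNFSF12, which encodes TWEAK itself, was at 0 CPM at day 60 and on both day 200 chips. Of 8 genes of the insulin-like growth factors, IGFBP3 was higher (22.2, 66.2 and 55.9 CPM). Of 6 VEGF ligands and receptors, KDR was higher (11.4, 112 and 127 CPM), and VEGFA stood at 234, 369 and 458 CPM without passing the fold.

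Of 14 guanylate-binding and interferon response genes, 4 were higher and 0 lower, led by GBP3 (0.886, 15.1 and 8.60 CPM) and GBP1 (2.87, 14.4 and 25.0 CPM). Of 9 genes of gp130 and STAT3 signalling, the route by which injury cytokines act on Müller glia, CEBPD (18.3, 67.2 and 143 CPM) and the feedback inhibitor SOCS3 (5.11, 24.2 and 31.9 CPM) were higher. STAT3 itself stood at 89.3, 166 and 194 CPM. Of 9 immediate early and stress genes, 6 were higher, led by FOS (299, 863 and 1139 CPM) and FOSB (111, 307 and 422 CPM), genes that dissociation of tissue also induces, and its part was not tested. Of 8 Müller glia function genes 6 were higher and 0 lower, led by the retinoid carrier gene RLBP1 (3.39, 210 and 86.0 CPM) and the carbonic anhydrase gene CA2 (31.3, 420 and 228 CPM).

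Lists of reactive astrocyte genes moved unevenly. Of 5 pan-reactive genes tested, CP (17.4, 366 and 350 CPM) and the oncostatin M receptor gene OSMR (2.24, 8.33 and 16.4 CPM) were higher and TIMP1 was lower (701, 142 and 346 CPM). Of 4 genes of the inflammatory list, the complement inhibitor gene SERPING1 (41, 174 and 218 CPM) and AMIGO2 (3.78, 14.4 and 8.68 CPM) were higher. Of 5 genes of the injury list, 0 were called. Of 10 retinal progenitor genes, CCND1 alone was called, and it was lower (318, 106 and 136 CPM). The medians of the changes were -0.50, 0.82, -0.50 and 0.21 for these 4 lists, beside 0.073 for all rows.

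Markers of other cells were read beside these genes. The 7 astrocyte markers in the table summed to 137, 118, 123 and 115 CPM at day 60, at day 90 and on chips a and b, with AQP4 higher and FGFR3 lower at day 200. The 4 microglia and macrophage markers in the table summed to 6.63, 8.78, 1.97 and 3.05 CPM, with 3 of the 4 at 0 on each day 200 chip. The other 6 of the 10 listed had no row under their symbols in the count table and could not be read. The part of such cells in LGALS3 and CD44 was not tested. The 7 pericyte markers summed to 51.4, 101, 45.9 and 84.8 CPM. The 3 epithelial markers in the table summed to 9.89, 12.0, 4.60 and 14.2 CPM. The 8 mesenchyme and fibroblast markers summed to 678, 3132, 1118 and 3150 CPM, with DCN higher at day 200 (28.3, 59.8 and 147 CPM), and chip b held 31 ECM-like cells against 6 on chip a. The sum and IGFBP6 were both higher on chip b than on chip a, and the part of these cells in IGFBP6 was not tested.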

How the data were processed

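Single cells of retinal organoids at 3 time points were measured by SMART-Seq v4 on Fluidigm C1 chips. Per the labels and the study's methods, the authors trimmed reads with Trimmomatic 0.33, aligned them with STAR 2.4.0 to GRCh38.p7 with GENCODE 25, and counted them with HTSeq 0.6. The deposited values are raw counts of reads per gene, without molecular identifiers, for 1976 cells and 24415 rows. The counting parameters name no strand setting. The row named GFP-Spike, here called the spike-in row (at most 0.0165% of a chip's reads), was left out of library sizes. That row held 0% of the reads of day 60 and day 90, so it does not show how much spike-in was added. Whether its reads came from an added spike-in or from the GFP reporter was not tested. Per the study's methods, the day 90 chip was run first, with a higher spike-in concentration and a looser spike-in filter. A lower read filter was used at day 60. The part of these differences in the values between days was not tested. Each cell was assigned to its chip column and day by its sample name, and 0 cell identifiers were shared between samples. No cell was left out.

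The 9 genes, the gene lists and the alternatives were chosen with earlier results of these data known. Counts were summed per chip and given as CPM with exact Poisson intervals. Shares were taken after thinning each cell once to 50000 reads, which left out 6 cells of day 90, with exact Clopper-Pearson intervals. Reads are not independent molecules, so intervals cover counting error only. Cells were clustered in Seurat 5.3.0 under R 4.3.3 by LogNormalize with a scale factor of 10000, 1000 variable genes per time point (2426 in all), CCA anchors, 20 dimensions and a resolution of 0.6. Of the 12 clusters, 11 were named from the study's 9 lists of 10 markers, with at least 3 markers at 2 times the CPM of the other cells after adding 5 CPM and reads in 20% of the cells, and 1 stayed unnamed. Scrublet, run in scanpy 1.11.5, marked 1, 0, 22 and 2 cells by chip as doublets, and an alternative removed them. Tables were handled in Python 3.11.15 with numpy 2.4.6, pandas 2.3.3 and scipy 1.17.1. Gene positions are from GENCODE 44 on GRCh38, and promoters from RefSeq on GRCh38.p14. The steps were tested on simulated data.

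Named genes were the 9 genes, the 3 genes most like each, and from each of 20 lists the 2 largest rises and falls among rows past the fold. Genes beside GFAP in single cells (RFX4, SLC1A2, S100B and others), VEGFA, STAT3 and TNFSF12 were named after their values were seen. The larger Müller glia-like cluster was also chosen for a separate reading after its values were seen. Differences were left untested, since each of the first days has a single chip, only 1 degree of freedom lies between the chips of day 200, and cells and columns are not replicates. Alternatives were the spike-in row in the library size, TMM factors of edgeR, DESeq2 size factors, a mean over cells, a pseudocount of 10 CPM, no minimum, cells with at least 150000 reads and at most 10% mitochondrial reads, no doublets, no cells with most reads, each day 200 chip alone, other thinning, at least 5 reads, and other clusterings.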

Additional observations from a re-analysis of the deposited data

How the results depend on the processing

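The counts of the 9 genes called stayed within 1.5 times the reported count in 58 of 58 comparisons with an alternative, and 0 called changes turned their direction. These comparisons include the counts of lower genes, which were 0 throughout. They also include no minimum, which could not change a count since all 9 genes had passed. The rule compares counts only and does not ask which genes were called. Without the 5 cells of each chip with most reads of a gene, 4 genes were higher at day 200 (IGFBP6 was lost) and 4 at day 90 (GFAP was lost). Chip b was then higher than chip a for 4 genes, but not the same ones. GFAP was lost because it fell under the minimum. TNFRSF12A (6.37 and 16.2 CPM on chips a and b) and GBP2 (14.7 and 35.4 CPM) were added. Of the log2 changes of single genes, 240 of 261 moved by less than the spread used and 21 moved more. That spread was the SD between the 2 day 200 chips of the gene. Leaving out either chip could therefore not count as a move, and no minimum changed no value. For GFAP, whose chips differed by 6.17, only a very large move could count. The 240 are thus a weak sign of stability. The changes that took both signs were uncalled ones: FLT1 between the day 200 chips (-0.12 to 0.08), GFAP at day 200 (-0.76 to 5.41), IGFBP6 at day 90 (-0.66 to 0.41) and NES at day 200 (-0.50 to 0.05) and at day 90 (-0.14 to 0.18). Shares of cells with a read depended on the depth of thinning and on the reads asked for, and 64 of 108 moved. The share of reads in Müller glia-like cells moved in 18 of 45 settings. No paired analysis was possible because no test was made and days 60 and 90 have 1 chip each. Depth limits shares of low genes such as GFAP, and 1 chip per day limits every difference between days.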
